A study of Rattus norvegicus with 6 samples.

Results

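Integrins are the receptors by which fibroblasts hold on to the matrix. The 9 subunits described here are those that fibroblasts commonly carry: the α subunits encoded by Itga1, Itga3, Itga5, Itga6, Itga7 and Itgav, and the β subunits encoded by Itgb1, Itgb3 and Itgb5. They were chosen by gene symbol as 9 of the 14217 genes named on the array, through every probe set that the platform annotation maps to one of them alone. There were 19 such probe sets, and 17 of them, covering 8 genes, had a mean signal over the 6 arrays above the filter of 61.6. Itgb3 is the member below it.

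The arrays were hybridised with RNA of 3Y1, an embryonic fibroblast line of the rat, in 3 groups of 2 arrays that the labels call biological replicates. MUC1-CD tumors were 3Y1 cells stably transfected to express the cytoplasmic tail of MUC1, a membrane mucin, and grown under the skin of the hindlimbs of female athymic mice. MUC1-CD culture was the same transfected line grown in dishes, and Vector culture was 3Y1 cells stably transfected with the empty vector and grown in dishes. Dishes held DMEM with fetal bovine serum, penicillin, streptomycin and glutamine. Tumor RNA came from frozen, homogenised tissue with a column step, and culture RNA from TRIzol, so extraction and growth setting cannot be told apart. All groups carried a stable transfection, and no tumors of Vector cells were analysed here. Whether a line was 1 clone or a pool, the age of the mice and whether both lines came from the same 3Y1 stock are not given in these sources, so line and domain cannot be told apart. Athymic mice lack T cells but keep macrophages, blood vessels and muscle, and the probe sets were not tested for binding to mouse RNA.

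An integrin is a pair of 1 α and 1 β subunit, and the pair decides which matrix protein is bound. The β1 subunit pairs with α1 to bind collagens, with α3, α6 and α7 to bind laminins, and with α5 to bind fibronectin. The αv subunit pairs with β1, β3 or β5 to bind vitronectin, fibronectin and other proteins that carry the RGD motif. Inside the cell the β tails recruit talin and kindlin, and through these focal adhesion kinase, paxillin and the actin skeleton.

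The array values are MAS5 signals, an intensity on a linear scale, and means come with the SD of 2 arrays. A change is the difference between group means of log2(signal + 16), a scale that understates the change of weak signals, with the standard error (SE) from 1 limma fit over 18625 probe sets and p values adjusted over all of them by Benjamini-Hochberg. A change was called at an adjusted p under 0.05, and a gene stands by its probe set with the highest mean signal. A level is compared only within a probe set, since levels of different probe sets are not on a shared scale. The number of arrays limits the precision. In bulk RNA, fewer cells of a type and less RNA per cell cannot be told apart.

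The Vector arrays stood apart in RNA quality. For Gapdh the 3′ probe set divided by the 5′ one gave 1.11 to 1.18 on the 4 MUC1-CD arrays, against 11.5 and 17.8 on Vector replicates 1 and 2. For β-actin it gave 2.97 to 3.37 on the MUC1-CD arrays, against 4.15 and 41.7 on the Vector arrays. What goes with RNA quality and what goes with Vector cells cannot be told apart. The spread between Vector replicates was also the widest, with an SD of the log2 difference over all probe sets of 0.468 in tumors, 0.395 in MUC1-CD culture and 0.647 in Vector culture. All 13 fibroblast markers passed the signal filter, which is set on the mean over all arrays, tumors included. Among them only Fap was below the filter of 61.6 on the culture arrays. Its signals were 32.5 and 59.3 in MUC1-CD culture and 30.4 and 28.7 in Vector culture, against 588 and 513 in tumors. Vimentin (Vim) had signals of 23797 and 25074 in tumors and 20239 and 21146 in MUC1-CD culture, against 27322 and 26145 in Vector culture.

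The comparison of MUC1-CD culture with Vector culture asks which subunits go with the domain outside an animal. Itga1, Itga3, Itga6 and Itgb5 rose and Itgav fell, while Itga5, Itga7 and the brighter probe set of Itgb1 did not pass the test. These are 5 of 8 tested members, beside 46.1% of the 10037 tested genes, not far from the background of this comparison. The 4 rises stand beside 21.2% of genes higher, and the 1 fall beside 24.9% lower. The median change of the 8 members was 0.68, against -0.04 over all tested genes.

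The comparison of tumors with MUC1-CD culture asks which subunits go with growth in the animal. Itga1 rose, and Itga3 and Itga7 fell. These are 3 of 8 tested members, beside 18.8% of all tested genes. The rise stands beside 9.82% of genes higher and the 2 falls beside 8.97% lower. The median change of the members was -0.25, against 0.03 over all tested genes. With only the 4 arrays of these groups in the fit, 2 members rose and 4 fell, since Itga5 then rose and Itga6 and Itgav then fell. That fit called 43.2% of all probe sets, against 15.8% with all arrays. In the fit of all arrays the 3 groups share 1 estimate of the spread. The wider spread of the Vector arrays thus enters this comparison too.

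Tumors were also set against Vector cells, where transfection and growth setting both differ. Itga1, Itga6 and Itgb5 rose and Itga7 and Itgav fell, 5 of 8 tested members beside 51.4% of all tested genes. The share of members called was again near the background. The 3 rises stand beside 24.8% of genes higher and the 2 falls beside 26.6% lower. The median was 0.33, against -0.02 over all tested genes. The 3 comparisons share arrays, so their values are given side by side and are not independent of each other.

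**Figure D1:**
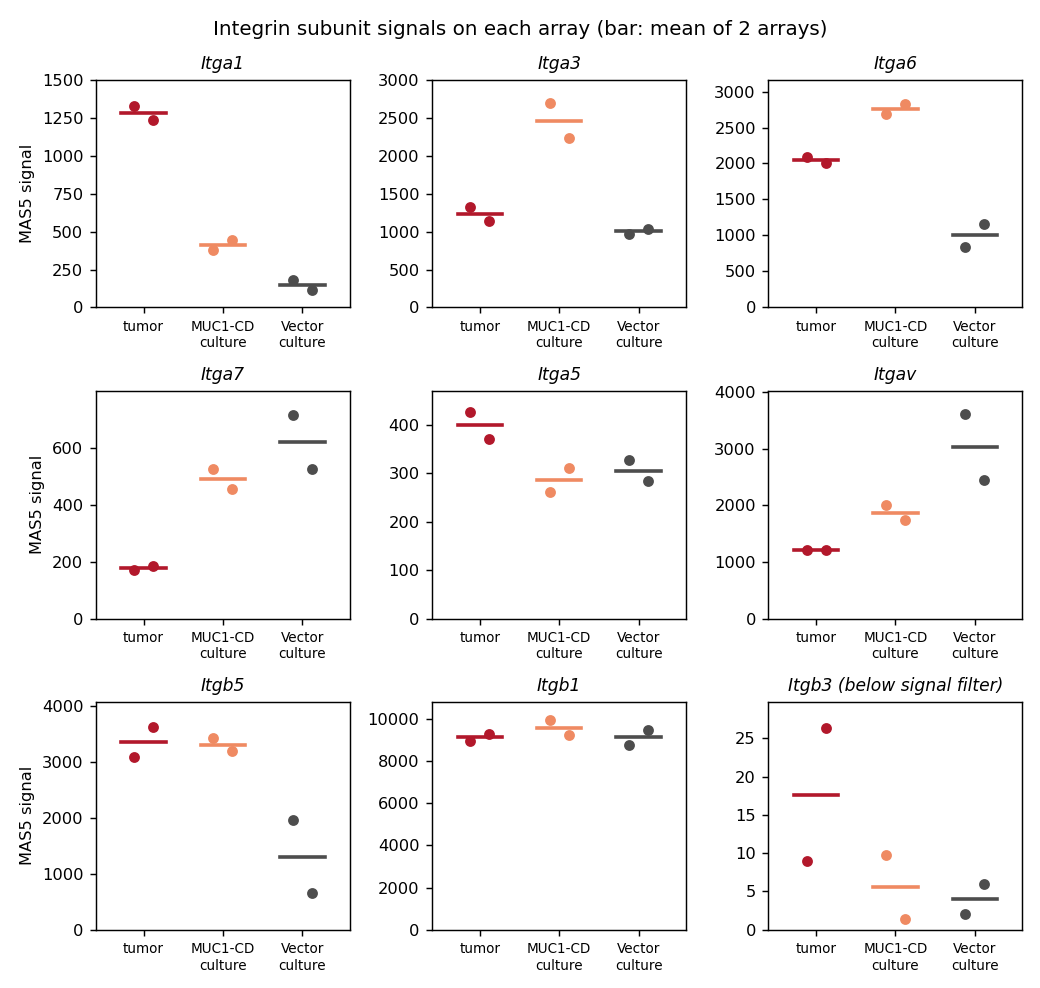
MAS5 signal (linear vertical axis from 0) of the brightest probe set of each of the 9 integrin genes on the 6 arrays, with tumors at the left, MUC1-CD culture in the middle and Vector culture at the right of each panel; points are arrays and bars are means of 2 arrays. Itga1 was highest on both tumor arrays (1329 and 1234), Itga3 and Itga6 on both MUC1-CD culture arrays, and Itgav on both Vector arrays, while the Itgb1 points of all groups lie between 8745 and 9938.

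Itga1 encodes the α1 subunit, a receptor for collagens with an inserted domain that binds them. Its single probe set had signals of 1329 and 1234 in tumors, 381 and 446 in MUC1-CD culture, and 181 and 115 in Vector culture. No 2 groups overlapped, and the order was tumors, then MUC1-CD culture, then Vector culture. MUC1-CD culture averaged 413.8 ± 46.0 against 148 ± 46.7 in Vector culture (SD, n = 2 each), a log2 change of 1.42 ± 0.22 (SE, adjusted p = 0.0027). Tumors averaged 1282 ± 66.8 and were higher than MUC1-CD culture by a log2 change of 1.60 ± 0.22 (adjusted p = 0.00552). Against Vector culture the change in tumors was 3.01 ± 0.22 (adjusted p = 0.000112), or 8.08-fold on the log2(signal + 16) scale, the largest change of any member in any of the 3 comparisons. Itga1 was the only tested member that rose in both steps, and it kept the direction of all 3 changes under every alternative run. The rise in tumors over MUC1-CD culture missed the threshold without any 1 of the 4 arrays of these groups (changes of 1.49 to 1.71, adjusted p = 0.0507 to 0.0751). In such a fit the array that remains alone is taken to vary as much as arrays of the other groups do.

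For members that rose or fell in MUC1-CD culture, the 250 bases before the annotated gene start are printed, so that the letters upstream of genes that moved together can be read beside one that moved the other way. They are RefSeq promoters of the GRCr8 assembly, 5′ to 3′ on the strand of the gene, and 6 of the 9 members had an entry (Itga6, Itga7 and Itgb3 did not). Itga1 lies at chr2:48545284-48545533, Itga3 at chr10:80518902-80519151 and Itgb5 at chr11:80449374-80449623, all on the minus strand, and these rose. Itgav, which fell, lies at chr3:89245132-89245381 on the plus strand. Capitals mark matches on either strand to the GC box GGGCGG and the ETS core CCGGAA. The AP-1 site TGANTCA and the TATA box TATAAA were searched as well.
Itga1: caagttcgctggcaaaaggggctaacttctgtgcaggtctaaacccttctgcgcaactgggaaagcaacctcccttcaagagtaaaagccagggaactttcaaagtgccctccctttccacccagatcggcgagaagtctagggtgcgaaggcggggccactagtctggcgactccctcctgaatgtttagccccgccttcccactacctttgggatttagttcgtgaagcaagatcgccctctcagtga
Itga3: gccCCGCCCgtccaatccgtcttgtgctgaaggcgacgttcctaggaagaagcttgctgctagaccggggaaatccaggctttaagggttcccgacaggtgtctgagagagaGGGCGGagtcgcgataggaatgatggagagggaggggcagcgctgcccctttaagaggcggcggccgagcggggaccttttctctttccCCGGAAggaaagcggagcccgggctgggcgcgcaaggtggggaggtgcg
Itgb5: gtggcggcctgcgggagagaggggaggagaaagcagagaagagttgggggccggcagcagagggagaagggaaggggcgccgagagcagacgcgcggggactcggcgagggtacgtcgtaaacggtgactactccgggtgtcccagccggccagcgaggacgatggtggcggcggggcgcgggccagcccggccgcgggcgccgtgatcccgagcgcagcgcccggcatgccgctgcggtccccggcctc
Itgav: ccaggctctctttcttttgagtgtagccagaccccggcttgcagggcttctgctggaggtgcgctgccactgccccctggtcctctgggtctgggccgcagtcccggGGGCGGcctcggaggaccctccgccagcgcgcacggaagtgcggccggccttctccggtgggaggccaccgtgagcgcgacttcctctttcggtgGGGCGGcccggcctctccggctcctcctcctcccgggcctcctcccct

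Itga3 held 2 GC boxes and 1 ETS core, Itgav held 2 GC boxes, and Itga1 and Itgb5 held no match. Of the members not printed, Itga5 held 1 GC box and Itgb1 held 4 GC boxes and 1 ETS core. No match overlapped another. None of the 6 windows held TGANTCA or TATAAA. Of 33469 rat promoters of the same length, 30.5% held a GC box, 12.6% the ETS core, 6.34% the AP-1 site and 12.9% the TATA box. These windows had a G and C content of 54.4% (Itga1), 64% (Itga3), 74.4% (Itgb5) and 72% (Itgav), beside a median of 51.2% over all promoters. A match is a description of these letters only.

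Itga3 encodes the α3 subunit, a laminin receptor. It had signals of 1319 and 1137 in tumors, 2693 and 2234 in MUC1-CD culture, and 965 and 1038 in Vector culture. Both MUC1-CD culture arrays were above all others, and no groups overlapped. The rise in MUC1-CD culture over Vector culture was 1.28 ± 0.15 (adjusted p = 0.000771) and was called under every alternative run. In tumors Itga3 fell by 0.99 (SE 0.15, adjusted p = 0.00674) relative to MUC1-CD culture. Tumors and Vector culture differed by 0.29 ± 0.15, which did not pass (adjusted p = 0.144, 95% interval -0.06 to 0.64). The fall in tumors missed the threshold without either tumor array or without MUC1-CD culture replicate 1 (adjusted p = 0.0552 to 0.0904), with changes of -0.86 to -1.10.

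Itga6 encodes the α6 subunit, also a laminin receptor, which marks basal epithelium as a partner of β4 and is carried by endothelial cells too. Its brightest probe set, 1383240_at, had signals of 2086 and 2000 in tumors, 2691 and 2830 in MUC1-CD culture, and 840 and 1162 in Vector culture. The groups did not overlap, and MUC1-CD culture was highest. The rise over Vector culture was 1.47 ± 0.17 in MUC1-CD culture (adjusted p = 0.000727) and 1.04 ± 0.17 in tumors (adjusted p = 0.00242). Tumors were lower than MUC1-CD culture by a change of -0.43 ± 0.17, which did not pass in the fit of all arrays (adjusted p = 0.131) and passed with only these 4 arrays in the fit (adjusted p = 0.00074). A second probe set, 1393558_at, gave 332 ± 16.8 in tumors, 394 ± 53.1 in MUC1-CD culture and 73.0 ± 20.6 in Vector culture. It rose by 2.22 ± 0.22 in MUC1-CD culture (adjusted p = 0.000448) and by 1.98 ± 0.22 in tumors (adjusted p = 0.000546), both against Vector culture.

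The dim Itga6 probe sets gave other values. For 1371186_at the signals were 161 and 213 in tumors, 126 and 67.9 in MUC1-CD culture, and 53.5 and 32.6 in Vector culture, so that here tumors and not MUC1-CD culture were highest. It rose in tumors over Vector culture (1.79 ± 0.34, adjusted p = 0.00506). Its change between tumors and MUC1-CD culture, 0.89 ± 0.34, did not pass with all arrays (adjusted p = 0.132) and did with only these 4 (adjusted p = 0.0209), in the direction opposite to 1383240_at. The remaining probe set, 1371185_at, lay near the filter at 75.8 ± 0.778 in tumors, 55.8 ± 8.49 in MUC1-CD culture and 57.5 ± 19.2 in Vector culture and passed in no comparison. The rise of Itga6 over Vector culture was thus called in the brighter probe sets in both MUC1-CD culture and tumors. For 1371186_at it was called in tumors only, with 0.91 ± 0.34 in MUC1-CD culture (adjusted p = 0.0693). Whether tumors differ from MUC1-CD culture depended on the probe set. Dividing each array by its median signal, an alternative scaling, took the tumor change of 1383240_at over Vector culture to 0.45 (adjusted p = 0.0557).

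Itga7 encodes the α7 subunit, the main laminin receptor of skeletal muscle. Its brightest probe set, 1370937_a_at, had signals of 169 and 184 in tumors, 524 and 453 in MUC1-CD culture, and 713 and 524 in Vector culture. Both tumor arrays were far below the rest, while a MUC1-CD culture array (523.7) and a Vector array (524.3) all but touched. In tumors Itga7 fell by 1.39 (SE 0.20, adjusted p = 0.00571) relative to MUC1-CD culture and by 1.71 (SE 0.20, adjusted p = 0.000604) relative to Vector culture. MUC1-CD culture and Vector culture differed by -0.32 ± 0.20, which did not pass (adjusted p = 0.226, 95% interval -0.79 to 0.15). The fall against MUC1-CD culture missed the threshold without any 1 of the 4 arrays of these groups (changes of -1.29 to -1.49, adjusted p = 0.054 to 0.0775).

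A second Itga7 probe set, 1388240_a_at, was 98.5 and 90.9 in tumors, 259 and 240 in MUC1-CD culture, and 291 and 65.8 in Vector culture. The Vector arrays lay on either side of all others, and the probe set passed in none of the 3 comparisons with all arrays in the fit. With only tumors and MUC1-CD culture in the fit, it fell by 1.26 in tumors (adjusted p = 0.000285). The last Itga7 probe set, 1371214_at, was at 15.3 or less on every array, below the filter.

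The fall of Itga7 in tumors went with higher skeletal muscle markers on the same arrays. Of 10 tested muscle markers 9 rose and 0 fell in tumors against MUC1-CD culture, beside 18.8% of all tested genes called. Muscle actin (Acta1) was 5854 and 4971 in tumors, against 3.7 and 5.1 in MUC1-CD culture. The filter takes in the tumor arrays, and Acta1, Atp2a1 and Tnnc2 were below 61.6 on every culture array. These were tested only through their tumor signal, so a rise in tumors was favoured in advance. The summed signal of the 14 muscle markers on the array was 13742 and 12886 in tumors and 3355 and 3248 in MUC1-CD culture, against 10285 and 10859 in Vector culture, where the myosin gene Myh1 alone had 9779 and 10297. Between tumors and MUC1-CD culture, Itga7 and most tested muscle markers thus moved in opposite directions. The muscle sum was lower in MUC1-CD culture than in Vector culture, but in both cultures it was mostly Myh1. Myh1 was 2806 and 2626 in MUC1-CD culture, so the sums of the cultures describe this 1 probe set. Of the 10 tested muscle markers 1 rose and 3 fell in MUC1-CD culture against Vector culture, beside 46.1% of all tested genes called. The Itga7 change of -0.32 in this comparison did not pass. In tumors against Vector culture 9 muscle markers rose and 1 fell, beside 51.4% of all tested genes called. The 1 that fell was Myh1 (-1.31 ± 0.09, adjusted p = 9.26e-05). The part of muscle in the Itga7 values was not tested.

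Itga5 encodes the α5 subunit, which with β1 forms the main fibronectin receptor of fibroblasts. Its signals were 427 and 371 in tumors, 262 and 311 in MUC1-CD culture, and 328 and 283 in Vector culture. Both tumor arrays were above the other 4, and the culture groups overlapped. The change in tumors was 0.46 ± 0.18 against MUC1-CD culture (adjusted p = 0.134, 95% interval 0.03 to 0.88) and 0.37 ± 0.18 against Vector culture (adjusted p = 0.125). With only the tumor and MUC1-CD culture arrays in the fit, the first of these passed (adjusted p = 0.025). MUC1-CD culture and Vector culture differed by -0.09 ± 0.18 (adjusted p = 0.712, 95% interval -0.51 to 0.34).

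Itgav encodes the αv subunit, the shared partner of β3 and β5. Its brightest probe set, 1393226_at, had signals of 1218 and 1219 in tumors, 1997 and 1739 in MUC1-CD culture, and 3602 and 2446 in Vector culture. The order was the reverse of that of Itga1, and no groups overlapped. Itgav fell by 0.67 (SE 0.19, adjusted p = 0.0279) in MUC1-CD culture and by 1.27 (SE 0.19, adjusted p = 0.00186) in tumors, both relative to Vector culture. The change in tumors against MUC1-CD culture was -0.61 ± 0.19, which did not pass with all arrays (adjusted p = 0.0798) and passed with only these 4 (adjusted p = 0.000309). The size of the fall in MUC1-CD culture depended on the Vector array used, -0.39 without Vector replicate 1 and -0.94 without Vector replicate 2.

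The other Itgav probe sets gave smaller changes. Probe set 1383880_at gave 609.1 ± 19.2 in tumors, 614 ± 16.3 in MUC1-CD culture and 756 ± 113 in Vector culture. Probe set 1386581_at gave 519 ± 51.3 in tumors, 636 ± 26.1 in MUC1-CD culture and 669 ± 122 in Vector culture. Neither passed in any comparison with all arrays in the fit, and their changes in MUC1-CD culture against Vector culture were -0.29 ± 0.15 and -0.06 ± 0.17. With the median of the 3 probe sets in place of the brightest, the change of Itgav was -0.24 in MUC1-CD culture (adjusted p = 0.231) and -0.30 in tumors (adjusted p = 0.134), both against Vector culture. With all arrays and the given scaling, the falls of Itgav were thus called in 1 of its 3 probe sets. After median scaling 1383880_at also passed, at -0.61 in MUC1-CD culture (adjusted p = 0.0178) and -0.88 in tumors (adjusted p = 0.00272), and 1386581_at passed in tumors at -0.93 (adjusted p = 0.00329), all against Vector culture. Without Vector replicate 2, the change of 1383880_at was -0.44 in MUC1-CD culture and -0.45 in tumors. That of 1386581_at was then -0.24 in MUC1-CD culture and -0.53 in tumors. Without Vector replicate 1, 1383880_at was at -0.14 in MUC1-CD culture and -0.15 in tumors, and 1386581_at turned to 0.12 in MUC1-CD culture. The call of the brightest probe set, 1393226_at, was lost under 7 of 16 alternatives in MUC1-CD culture and under 1 of 16 in tumors, both against Vector culture.

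Itgb1 encodes the β1 subunit, the common partner of α1, α3, α5, α6 and α7. Its brighter probe set, 1368819_at, had signals of 8958 and 9280 in tumors, 9938 and 9238 in MUC1-CD culture, and 8745 and 9490 in Vector culture. The groups overlapped. The change was 0.07 ± 0.08 in MUC1-CD culture against Vector culture (adjusted p = 0.514, 95% interval -0.13 to 0.27), and -0.07 ± 0.08 in tumors against MUC1-CD culture (adjusted p = 0.614, 95% interval -0.27 to 0.13). These were the smallest standard errors of any member.

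The other Itgb1 probe set, 1387346_at, gave 3991 and 4473 in tumors, 4090 and 4232 in MUC1-CD culture, and 3465 and 2318 in Vector culture. It was higher on all 4 MUC1-CD arrays than on both Vector arrays. It rose by 0.55 ± 0.19 in MUC1-CD culture (adjusted p = 0.0492) and by 0.57 ± 0.19 in tumors (adjusted p = 0.0392), both against Vector culture. The first of these missed the threshold under 11 of the 15 alternatives, and without Vector replicate 2 the change was 0.26. The second missed it under 7 of the 15 and turned sign after median scaling (-0.021), and without Vector replicate 2 it was 0.29. Between tumors and MUC1-CD culture it differed by 0.02 ± 0.19 (adjusted p = 0.954, 95% interval -0.42 to 0.47).

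Itgb5 encodes the β5 subunit, which with αv binds vitronectin. Its brightest probe set, 1398358_a_at, had signals of 3097 and 3629 in tumors, 3434 and 3200 in MUC1-CD culture, and 1961 and 658 in Vector culture. Tumors and MUC1-CD culture overlapped, and both Vector arrays were lower and far apart. The rise over Vector culture was 1.53 ± 0.44 in MUC1-CD culture (adjusted p = 0.0284) and 1.54 ± 0.44 in tumors (adjusted p = 0.0247). Each of these calls was lost under 7 of 16 alternatives, among them median scaling, a fit of only the groups compared and leaving out any 1 of the 4 MUC1-CD arrays (adjusted p over the alternatives = 3.46e-08 to 0.126 in MUC1-CD culture and 2.6e-08 to 0.675 in tumors). Its size in MUC1-CD culture was 2.30 without Vector replicate 1 and 0.75 without Vector replicate 2, the array with the β-actin ratio of 41.7. Tumors and MUC1-CD culture differed by 0.02 ± 0.44 (adjusted p = 0.986), with a 95% interval of -1.04 to 1.07.

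Probe set 1396133_at of Itgb5 gave 150 and 207 in tumors, 135 and 167 in MUC1-CD culture, and 49.6 and 37.6 in Vector culture. It rose by 1.49 ± 0.26 in MUC1-CD culture (adjusted p = 0.00393) and by 1.70 ± 0.26 in tumors (adjusted p = 0.00189), both against Vector culture. Probe set 1370802_at gave 625 ± 23.0 in tumors, 854 ± 171 in MUC1-CD culture and 584 ± 176 in Vector culture. With all arrays in the fit it passed in no comparison, with a change of 0.55 ± 0.24 in MUC1-CD culture (adjusted p = 0.0993) and 0.13 ± 0.24 in tumors (adjusted p = 0.678), both against Vector culture. With only tumors and MUC1-CD culture in the fit, its tumor change of -0.43 passed (adjusted p = 0.0227). As the median of the 3 probe sets, the change of Itgb5 was 0.55 in MUC1-CD culture (adjusted p = 0.0972) and 0.13 in tumors (adjusted p = 0.675).

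Itgb3 encodes the β3 subunit, the other vitronectin receptor partner of αv, also carried by platelets with αIIb. Its single probe set had signals of 9.0 and 26.3 in tumors, 9.7 and 1.4 in MUC1-CD culture, and 2.1 and 6.0 in Vector culture. These values are among the weak signals of the array, and the probe set was not tested. Without a filter its changes were 0.08 in MUC1-CD culture against Vector culture, 0.62 in tumors against MUC1-CD culture and 0.70 in tumors against Vector culture, at adjusted p = 0.173 to 0.903. All 7 platelet and megakaryocyte markers on the array lay below the filter too, and their summed signal was 330 and 255 in tumors and 96.0 and 202 in MUC1-CD culture, against 185 and 244 in Vector culture.

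**Figure D2:**
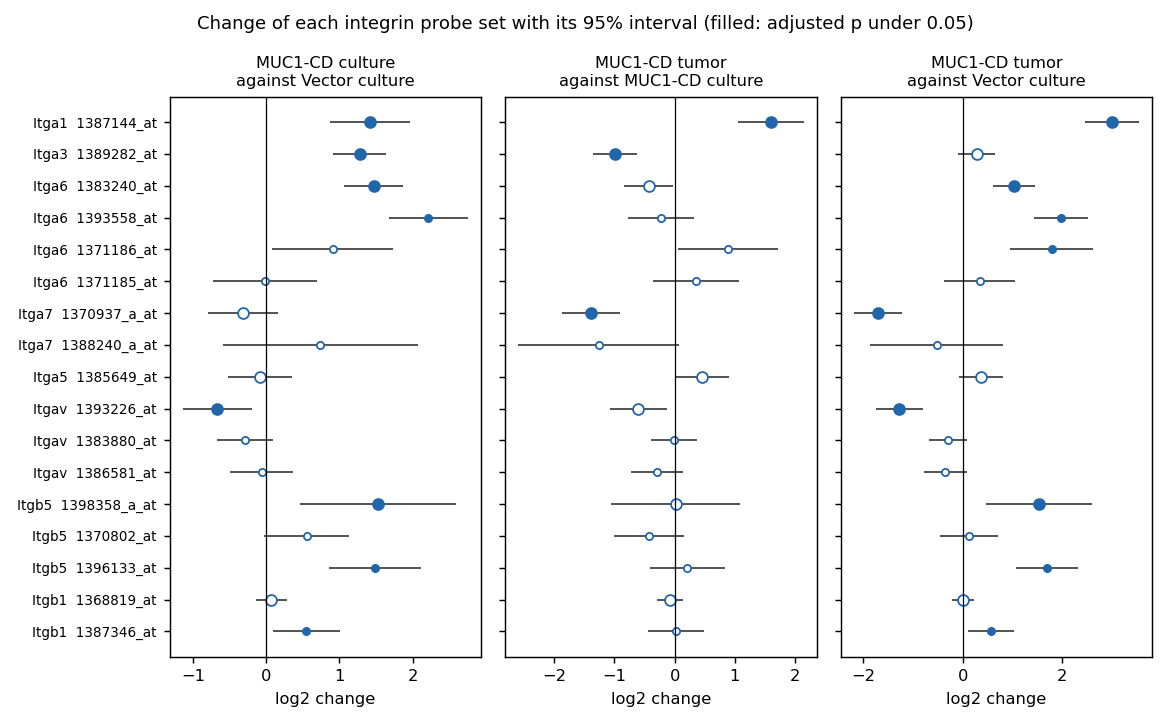
Log2 change (horizontal axis) of each of the 17 integrin probe sets above the signal filter in the 3 comparisons; circles are limma estimates, lines their 95% intervals, large circles the probe set that stands for its gene, and filled circles those with adjusted p under 0.05. Itga1 lies to the right of 0 in all panels (1.42, 1.60 and 3.01), whereas the probe sets of Itga6, Itgav, Itgb1 and Itgb5 spread within a gene.

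Between the probe sets of 1 gene the calls were of 1 direction in each comparison, but not every probe set passed. In MUC1-CD culture against Vector culture 8 of the 17 probe sets were called, beside 45.8% of all 18625 tested. In tumors against MUC1-CD culture 3 of 17 were called, beside 15.8%. In tumors against Vector culture 9 of 17 were called, beside 51.5%. RNA quality differed between the Vector arrays and the rest, as given above, and its part in the differences between probe sets was not tested.

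The scaling of the arrays bears on the direction of small changes. With every array divided by its median signal, the middle change over all probe sets moved from 0.07 to -0.24 in MUC1-CD culture against Vector culture, from 0.05 to -0.21 in tumors against MUC1-CD culture, and from 0.12 to -0.45 in tumors against Vector culture. The share of calls that were higher became 33.7%, 22.9% and 25.7% in these comparisons under that scaling. After this scaling the changes of Itga1, Itga3 and Itga6 in MUC1-CD culture were 1.12, 0.96 and 1.15 and still passed, and that of Itgb5, at 1.21, did not (adjusted p = 0.0549). The brighter Itgb1 probe set then had changes of -0.25 in MUC1-CD culture, which did not pass (adjusted p = 0.0765), and -0.59 in tumors, which passed as a fall (adjusted p = 0.00208), both against Vector culture.

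Some integrins outside the fibroblast set were called as well. Of 17 such genes 13 were on the array and 6 passed the filter; in MUC1-CD culture 3 rose and 0 fell against Vector culture, and in tumors 4 rose and 0 fell against MUC1-CD culture. The shares of all tested genes called were 46.1% and 18.8%, so that 3 of 6 in MUC1-CD culture is near the background. Itga8, whose subunit binds RGD proteins such as nephronectin and is known from mesenchyme and smooth muscle, had signals of 879 and 951 in tumors, 216 and 187 in MUC1-CD culture, and 13.7 and 14.4 in Vector culture. It rose by 2.85 ± 0.19 in MUC1-CD culture over Vector culture (adjusted p = 0.000101) and by 2.10 ± 0.19 in tumors over MUC1-CD culture (adjusted p = 0.000907). Itga8 thus had the order of Itga1, with no overlap between groups.

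Itgb4, the laminin receptor partner of α6 in epithelia, had signals of 506 and 541 in tumors, 256 and 234 in MUC1-CD culture, and 71.7 and 80.8 in Vector culture. It rose by 1.50 ± 0.17 in MUC1-CD culture over Vector culture (adjusted p = 0.000772) and by 1.05 ± 0.17 in tumors over MUC1-CD culture (adjusted p = 0.00995). E-cadherin (Cdh1), an epithelial marker, was 537 and 425 in tumors, 1.1 and 5.2 in MUC1-CD culture, and 11.3 and 13.3 in Vector culture. The keratinocyte keratins Krt5 and Krt14 lay below the filter, at 85.6 or less on every array. Epcam, Krt18, Krt19, Dsp and Cldn4 also lay below the filter. The 10 epithelial and keratinocyte markers include Itgb4. Their summed signal was 1310 and 1280 in tumors and 416 and 408 in MUC1-CD culture, against 689 and 729 in Vector culture. Krt8 was highest in Vector culture, at 449.8 and 424.3, against 43.1 and 59.1 in tumors and 36.2 and 43.6 in MUC1-CD culture. Its change in tumors against Vector culture was -2.77 ± 0.23 (adjusted p = 0.000177). The part of these markers in the tumor value of Itgb4 or Itga6 was not tested.

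The leukocyte subunit Itgb2 was 805 and 843 in tumors, 18.9 and 34.1 in MUC1-CD culture, and 45.3 and 71.4 in Vector culture. It rose by 4.33 ± 0.28 in tumors over MUC1-CD culture (adjusted p = 0.000306). Itgax, known as CD11c of dendritic cells and macrophages, was 1765 and 2086 in tumors, 731 and 679 in MUC1-CD culture, and 215 and 157 in Vector culture, so that it was also measured in culture. It rose by 1.85 ± 0.19 in MUC1-CD culture over Vector culture (adjusted p = 0.000464) and by 1.43 ± 0.19 in tumors over MUC1-CD culture (adjusted p = 0.00433). Itgae and Itgb7 passed the filter and were called in no comparison, and Itga2b, Itga9, Itga11, Itgad, Itgal, Itgam and Itgb6 lay below it.

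**Figure D3:**
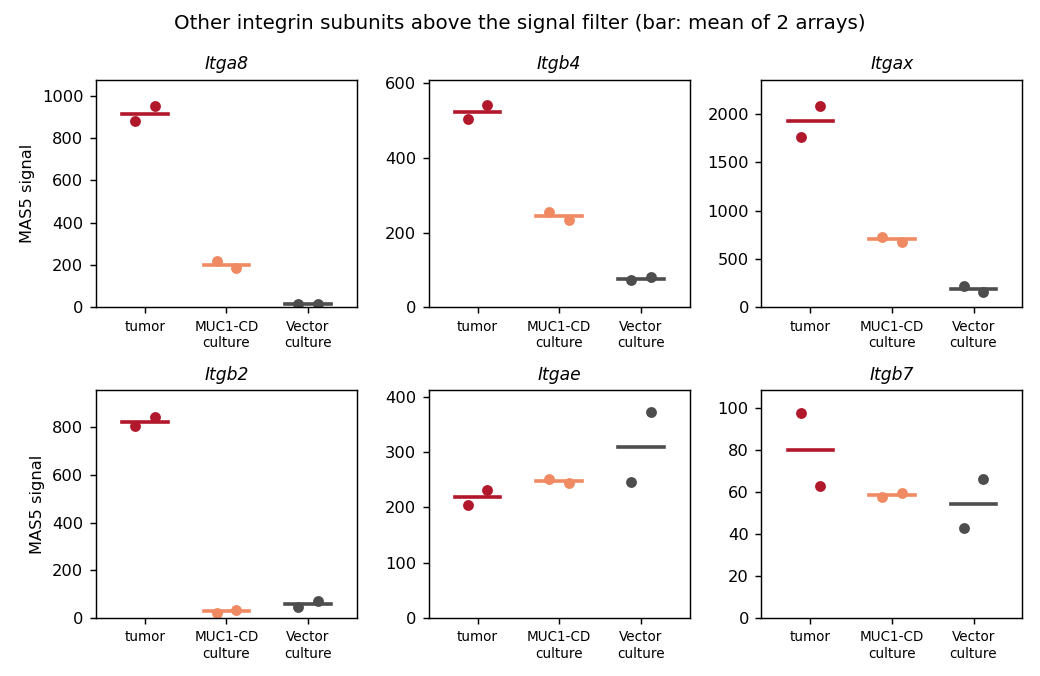
MAS5 signal (linear vertical axis from 0) of the 6 other integrin genes above the filter on each array, with tumors at the left, MUC1-CD culture in the middle and Vector culture at the right; points are arrays and bars are means of 2 arrays. Itga8, Itgb4 and Itgax were highest in tumors and lowest in Vector culture, and Itgb2 was at 805 and 843 in tumors, against at most 71.4 on the other arrays.

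Many markers of host cell types were higher on the tumor arrays on which Itga1 rose. Of 12 tested macrophage and leukocyte markers 8 rose and 1 fell in tumors against MUC1-CD culture, beside 18.8% of all tested genes called. The summed signal over 16 markers was 11492 and 11371 in tumors and 3586 and 3766 in MUC1-CD culture, against 1515 and 1567 in Vector culture. Most of the sum in MUC1-CD culture was Cd14, with 3248 and 3289 in tumors, 2828 and 3052 in MUC1-CD culture, and 594 and 464 in Vector culture. Between the cultures 2 of the 12 were higher and 3 lower in MUC1-CD culture, beside 46.1% of all tested genes called. Of 5 tested endothelial markers 4 rose and 0 fell, beside the same 18.8%. The filter is set on the mean over all arrays, tumors included. Aqp1, Flt1 and Tek, and the leukocyte markers Aif1, Coro1a and C1qa, were below 61.6 on every culture array. Such markers were tested only through their tumor signal, so a rise in tumors was favoured in advance. The sum over 11 endothelial markers was 2963 and 2952 in tumors and 595 and 592 in MUC1-CD culture, against 624 and 549 in Vector culture. The defining endothelial markers Pecam1 and Kdr were at 27.5 or less in tumors. Of 3 tested pericyte and smooth muscle markers 0 rose and 0 fell at an adjusted p under 0.05, with a sum over 10 markers of 2254 and 2087 in tumors and 1803 and 1660 in MUC1-CD culture, against 700 and 540 in Vector culture. Their part in the tumor values of Itga1, Itga5 and Itga6 was not tested.

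**Figure D4:**
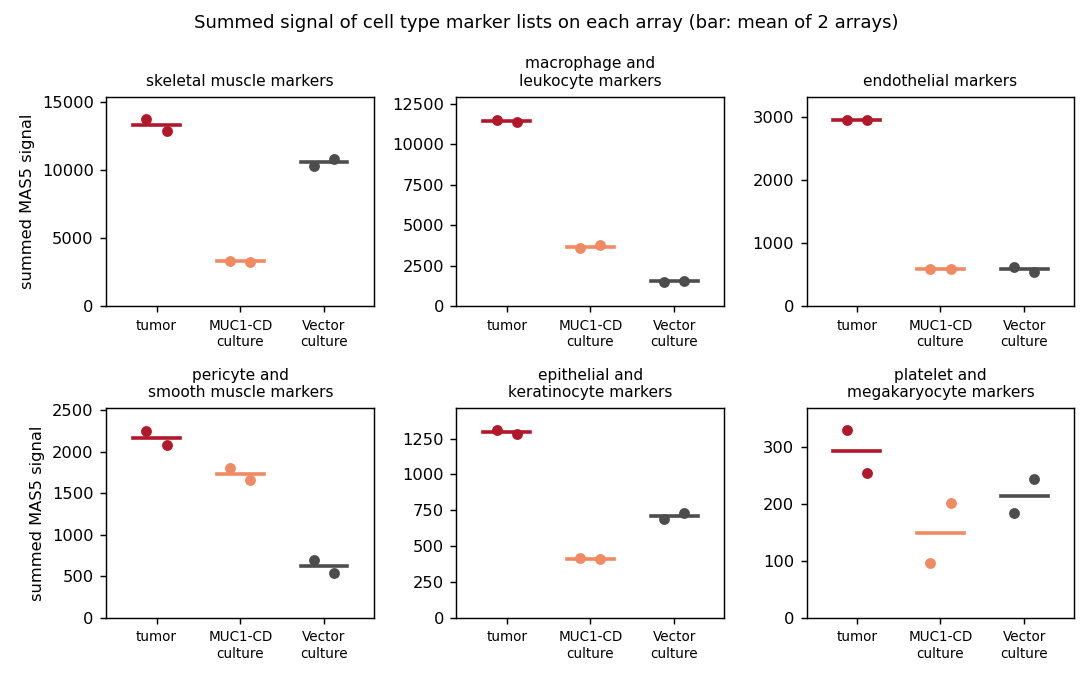
Summed MAS5 signal (linear vertical axis from 0) of 6 lists of cell type markers on each array, with tumors at the left, MUC1-CD culture in the middle and Vector culture at the right; points are arrays and bars are means of 2 arrays. The macrophage and endothelial lists were higher on both tumor arrays than on the other 4, and the muscle list was also high in Vector culture, where Myh1 alone had 9779 and 10297.

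Genes for proteins that integrins bind were called in each comparison. Of 38 ligand genes 29 were tested: 11 rose and 12 fell in MUC1-CD culture against Vector culture, with a median of -0.09, and 12 rose and 3 fell in tumors against MUC1-CD culture, with a median of 0.54. These counts stand beside 46.1% and 18.8% of all tested genes called in these comparisons. Tgfbi, an adhesive matrix protein with an RGD motif, was 3539 and 3620 in tumors, 173 and 146 in MUC1-CD culture, and 13776 and 13706 in Vector culture. Periostin (Postn), a ligand of αv integrins, was 18360 and 19565 in tumors, 215 and 276 in MUC1-CD culture, and 137 and 140 in Vector culture. Tenascin-C (Tnc) was 1286 and 1242 in tumors, 212 and 220 in MUC1-CD culture, and 1104 and 1345 in Vector culture, and fell by 2.41 (SE 0.15, adjusted p = 8.34e-05) in MUC1-CD culture relative to Vector culture.

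Fibrillin-1 (Fbn1), of elastic microfibrils, rose by 2.75 ± 0.19 in MUC1-CD culture over Vector culture (adjusted p = 0.000114), with 986 and 1023 in tumors, 155 and 153 in MUC1-CD culture, and 10.5 and 8.0 in Vector culture. Ccn2, known as CTGF, fell by 4.01 (SE 0.18, adjusted p = 2.1e-05) in tumors relative to Vector culture. Its signals were 224 and 303 in tumors, 800 and 746 in MUC1-CD culture, and 4126 and 4816 in Vector culture. Tenascin-N (Tnn) rose by 3.55 ± 0.17 in tumors over MUC1-CD culture (adjusted p = 0.000147). Ligand genes were thus called in both directions, with Tgfbi and Tnc low in MUC1-CD culture and high in the other groups.

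Of 46 genes for adaptors and signalling proteins at the integrin tail 41 were tested. In MUC1-CD culture against Vector culture 12 rose and 7 fell, with a median of -0.01, and in tumors against MUC1-CD culture 4 rose and 2 fell, with a median of 0.09. Beside the 46.1% and 18.8% of all tested genes called, these shares of 41 are near or under the background, and the genes named here are those with the smallest p. Focal adhesion kinase (Ptk2) was 1434 and 1464 in tumors, 1324 and 1341 in MUC1-CD culture, and 2938 and 3271 in Vector culture. It fell by 1.21 (SE 0.11, adjusted p = 0.000351) in MUC1-CD culture relative to Vector culture. Its docking partner p130Cas (Bcar1) went the other way, with 603 and 610 in tumors, 679 and 712 in MUC1-CD culture, and 239 and 225 in Vector culture. Bcar1 rose by 1.52 ± 0.14 (adjusted p = 0.000332) in MUC1-CD culture over Vector culture.

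The GTPase Cdc42 rose by 0.87 ± 0.08 (adjusted p = 0.000317) and the endocytic adaptor Dab2 fell by 0.67 (SE 0.07, adjusted p = 0.000646) in MUC1-CD culture relative to Vector culture. The kinase Pak1, an effector of Cdc42 and Rac, was 140 and 143 in tumors, 644 and 505 in MUC1-CD culture, and 1365 and 1275 in Vector culture. It fell by 1.90 (SE 0.17, adjusted p = 0.000907) in tumors relative to MUC1-CD culture. The scaffold Nedd9 and the kindlin gene Fermt2, which activates integrins, rose in tumors over MUC1-CD culture, by 1.52 ± 0.25 (adjusted p = 0.00948) and 0.61 ± 0.10 (adjusted p = 0.0111), and the adaptor Shc1 fell by 0.79 (SE 0.17, adjusted p = 0.0232).

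Of 16 genes for membrane proteins that partner integrins 15 were tested, and 5 rose and 5 fell in MUC1-CD culture against Vector culture, with a median of 0.02, beside 46.1% of all tested genes called. The proteoglycan gene Cspg4, known as NG2, was 583 and 662 in tumors, 931 and 855 in MUC1-CD culture, and 3.9 and 3.3 in Vector culture. It is also a pericyte marker, and its change in tumors against MUC1-CD culture, -0.51 ± 0.17, did not pass (adjusted p = 0.0982). The tetraspanin gene Cd81 was 5725 and 6636 in tumors, 10839 and 10247 in MUC1-CD culture, and 16619 and 16043 in Vector culture, and fell in each of the 3 comparisons, by 0.63 (SE 0.09, adjusted p = 0.0022) in MUC1-CD culture relative to Vector culture and by 0.77 (SE 0.09, adjusted p = 0.00332) in tumors relative to MUC1-CD culture.

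In tumors against MUC1-CD culture 4 of these partner genes rose and 1 fell, with a median of 0.48, beside 18.8% of all tested genes called. Syndecan-1 (Sdc1) rose by 2.70 ± 0.16 (adjusted p = 0.000223), with signals of 5443 and 6181 in tumors, 953 and 811 in MUC1-CD culture, and 1903 and 1516 in Vector culture. Cd47, the integrin-associated protein, rose by 0.67 ± 0.11 (adjusted p = 0.0105). Slc3a2, the CD98 heavy chain that binds β tails, rose by 0.80 ± 0.15 (adjusted p = 0.0147) in tumors over MUC1-CD culture. In MUC1-CD culture relative to Vector culture, Slc3a2 fell by 1.04 (SE 0.15, adjusted p = 0.00177).

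The genes whose pattern over the 6 arrays was most like that of a member are given as a description, with Pearson's r of log2(signal + 16), where the 3 groups shape every such r. For Itga1 they were Bmpr2 (r = 0.9991) and Hook3 (r = 0.9989), and 361 genes had an r above 0.95. For Itga3 they were LOC100911193 (r = 0.9942) and Mtpap (r = 0.9934). For Itga6 they were Cyb5b (r = 0.9977) and Mms22l (r = 0.9972). For Itgav they were Fam107b (r = 0.9981) and Sptan1 (r = 0.9947), and for Itga7 Rangap1 (r = 0.9962) and Prps1 (r = 0.9961). Itgb5 was nearest to Ogdh (r = 0.9997) and Ptbp1 (r = 0.9986), both of which were lowest on Vector replicate 2, at 667 and 815. Itga5 and Itgb1, with little change between groups, had 18 and 5 genes above 0.95.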

How the data were processed

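The authors deposited 1 MAS5 signal per probe set and array. By its values this is a linear intensity, and per the submitters' processing notes it came from MAS5. The MAS5 version, detection calls and filters are not given in these sources. The authors' scaling (a trimmed mean of 500.2 on each array) was not altered. Of 31099 probe sets 57 were controls. Of the others 20826 named a single gene and 436 named several and were left unnamed, with old symbols replaced by those of GRCr8 through the Entrez number.

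Signals were transformed as log2(signal + 16), and the 18625 probe sets at or above the 40th percentile of mean signal were kept. All 6 arrays entered 1 limma fit (version 3.58.1, R 4.3.3) with group as the only term and a mean-variance trend, with 3 residual degrees of freedom. P values are 2-sided, were adjusted by Benjamini-Hochberg and measure only the spread between the arrays of a group. The code was checked on simulated data. All 9 members are named; of other lists, up to 4 genes with the smallest p per comparison, and the 2 genes most like each member. Some single markers were named after their values were seen. These were Vim, Fap, Myh1, Cd14, Cdh1, Krt5, Krt8, Krt14, Pecam1, Kdr and the markers named as below the filter. The members and lists were chosen with earlier results of these data known. Replicate numbers were not taken to pair arrays, since no label says so.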

Additional observations from a re-analysis of the deposited data

How the results depend on the processing

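Directions and calls were recomputed with pseudocounts of 1 and 64, no filter and a 60th percentile filter, quantile and median scaling, no mean-variance trend, only the groups compared, a replicate block, each array left out, and the median of a gene's probe sets. Over all member changes 657 recomputed values kept direction and side of the threshold, 52 lost the call, 37 gained it and 31 turned sign. The cause was not tested where none is named. For MUC1-CD culture against Vector culture, the 4 higher members of the report were 3 to 5 over the alternatives run, and 1 member was lower. The lower count was 2 after median scaling, 0 without the trend, 0 with only the groups compared, 0 with gene medians, and 0 to 2 with an array left out. For tumors against MUC1-CD culture, 1 higher and 2 lower members became 2 and 4 with only these groups. The lower count was 4 after median scaling. With an array left out the counts ran from 0 to 2 higher and from 0 to 4 lower. For tumors against Vector culture, 3 higher and 2 lower became 1 and 3 after median scaling, and 2 lower became 1 with gene medians. With gene medians Itgb5 was no longer called higher either (0.13, adjusted p = 0.675). Its call was lost under 7 of the 16 alternatives.

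Deviations of same-numbered arrays correlated over probe sets at -0.0210, -0.0305 and -0.0124 across the 3 pairs of groups. With 2 arrays a group, these values cannot show whether same-numbered arrays were handled together. With a replicate block the counts of members were 4 higher and 1 lower, 1 higher and 2 lower, and 3 higher and 2 lower in the 3 comparisons, as without it. Among member probe sets the block ended the call of Itgb1 1387346_at in MUC1-CD culture against Vector culture (adjusted p = 0.058).

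Sign changes after median scaling were, in MUC1-CD culture against Vector culture, Itgb1 1368819_at at -0.25. In tumors against MUC1-CD culture they were Itgb1 1387346_at at -0.25, Itgb5 1396133_at at -0.032 and 1398358_a_at at -0.25. In tumors against Vector culture they were Itgb1 1368819_at at -0.59 and 1387346_at at -0.021, Itgb5 1370802_at at -0.45, Itga6 1371185_at at -0.13, Itga5 at -0.20 and Itga3 at -0.30. Quantile normalization turned Itga6 1371185_at to -0.013 in tumors against MUC1-CD culture and -0.24 in tumors against Vector culture. Gene medians turned Itga7 to 0.21 in MUC1-CD culture against Vector culture, and Itga6 to 0.33 and Itgb5 to -0.43 in tumors against MUC1-CD culture.
With an array left out, changes in MUC1-CD culture against Vector culture ran as follows: Itga6 1371185_at from -0.28 to 0.25, Itga5 1385649_at from -0.21 to 0.028, Itgav 1386581_at from -0.24 to 0.12, Itga7 1388240_a_at from -0.21 to 1.70. With an array left out, changes in tumors against MUC1-CD culture ran as follows: Itgav 1383880_at from -0.043 to 0.020, Itgb1 1387346_at from -0.060 to 0.10, Itgb5 1398358_a_at from -0.10 to 0.13. With an array left out, changes in tumors against Vector culture ran as follows: Itgb1 1368819_at from -0.058 to 0.060, Itgb5 1370802_at from -0.18 to 0.43, Itga7 1388240_a_at from -1.47 to 0.44.
Of the changes that turned sign, that of Itgb1 1387346_at in tumors against Vector culture had been called with all arrays and the given scaling. Of the turned values, -0.59 of Itgb1 1368819_at passed the test (adjusted p = 0.00208). 2 arrays a group limit all of these comparisons, and no detection calls were used here to bound weak signals such as Itgb3.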

Other observations

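The chromosomes of the members, in the GRCr8 annotation, had different median changes. Itga5 and Itga7 lie on chromosome 7, whose 657 tested genes had a median change of -0.65 in MUC1-CD culture against Vector culture and -0.54 in tumors against Vector culture. Itga7 changed by -0.32 and -1.71 in these comparisons, and Itga5 by -0.09 and 0.37. Itga6 and Itgav share chromosome 3, with medians of 0.02 and 0.08 over 774 genes, and were called in opposite directions in both comparisons. Itga3 and Itgb3 lie on chromosome 10 (medians of -0.20 and -0.16), Itga1 on chromosome 2 (-0.19 and -0.23), Itgb1 on chromosome 19 (-0.01 and -0.01) and Itgb5 on chromosome 11 (0.06 and 0.01).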
